A study of Rattus norvegicus with 30 samples.

Results

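Complement is a cascade of plasma and cell surface proteins that marks microbes and damaged cells for removal and drives inflammation. The 9 genes followed here cover its main steps: C1qa, C1qb, C1qc, C1r and C1s (the C1 complex of the classical pathway), C2 and Cfb (the protease subunits of the C3 convertases), C3 (the central component) and Cd55 (a membrane inhibitor of the convertases). They were taken by gene symbol. The 9 symbols matched 10 of the 22907 rows with an FPKM value (fragments scaled to gene length and library size), since C2 named 2 rows.

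Lung RNA was sequenced from male Sprague Dawley rats, aged 8 weeks, in 10 groups of 3 lung samples. The study set out to compare emodin with dexamethasone in acute lung injury that follows severe acute pancreatitis (SAP). In the Sham groups the pancreas was only moved, and in the Con groups sterile saline was infused into the biliopancreatic duct. The SAP, DEX and Emo groups all received 5.0% sodium taurocholate, a bile salt, by the same route. DEX (dexamethasone, a synthetic glucocorticoid) was injected intravenously at 10 mg/kg, and emodin, a plant anthraquinone, was given into the stomach. Doses followed at 2 and 12 hours, the second only in the rats kept to 24 hours, and the other groups received vehicle. The labels give the emodin dose as 10 mg/kg in the sample descriptions and as 40 mg/kg in the protocol. Lungs were taken at 6 hours (Sham-6h, Con-6h, SAP-6h, DEX-6h and Emo-6h) or 24 hours (Sham-24h, Con-24h, SAP-24h, DEX-24h and Emo-24h) and had been flushed with saline through the pulmonary artery. The labels number 3 samples in each group, and p-values measure the spread between these samples only.

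In the classical pathway, C1q binds antibody complexes or dying cells and activates the proteases C1r and C1s, which cleave C4 and C2 to form a C3 convertase. In the alternative pathway, factor B (Cfb) takes the place of C2 and amplifies the cleavage of C3. Macrophages are the main source of C1q in tissues, whereas C3, C2 and factor B in blood come largely from the liver and are also made locally in the lung, where interferons and inflammatory cytokines are known inducers of several of these genes.

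Reads counted on genes ranged from 16813949 to 34692306 per library. Alveolar type 2 cell markers (7 of 7 matched, among them Sftpc, lowest value 12733 FPKM) summed to 25000 to 47800 FPKM. The hepatocyte list (6 of 6) summed to 5.35 to 42.7 FPKM, with Serpina1 as its most abundant gene (4.08 to 42.0 FPKM) and albumin (Alb) at 0 to 6.42 FPKM. In bulk tissue, fewer cells of a type and less RNA per cell cannot be told apart.

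One library stood apart, and the main differences of Emo-6h below are given with and without it. Comparisons between other groups excluded it only in fits with the compared groups alone, and otherwise it entered the spread of their shared model. Replicate 3 of Emo-6h had the highest value of all 30 libraries in 8 of the 10 rows, all but C3 and Cd55, while 9.94% of the 12410 genes with a mean of at least 1 FPKM were highest in it. The interferon response list (Isg15, Mx1, Oas1a, Irf7, Ifit3, Usp18 and Gbp2) summed to 3970 FPKM in this library and to 48.6 to 1120 FPKM in the other 29, and 7 of its 7 genes were highest there. Irf7, a transcription factor of the interferon response, reached 2136 FPKM against at most 345 FPKM elsewhere. The macrophage list (9 of 9 matched) summed to 289 FPKM against 119 to 270 FPKM elsewhere, with Cd68 and Siglec1 highest in this library, Mrc1 and Cd163 lowest, and Marco listed at 0 in 15 of the 30 libraries. The next highest interferon sums were 1120 FPKM in replicate 1 of Con-24h and 973 and 825 FPKM in replicates 3 and 1 of Emo-24h. The part of these differences in the complement values was not tested.

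Over the 30 libraries, the C2 row ENSRNOG00000051158 was the most abundant, with a mean of 238 FPKM, exceeded by 1.33% of all genes. C1qc (106 FPKM), C1qb (99.2 FPKM), C1qa (69.1 FPKM), C1r (62.2 FPKM) and C3 (53.8 FPKM) followed, each exceeded by 3.00% to 5.94% of genes. C1s and Cfb had means of 30.8 and 30.7 FPKM, Cd55 15.8 FPKM and the second C2 row, ENSRNOG00000051235, 9.33 FPKM. Both C2 rows lie on chromosome 20 and the files do not say which holds the complement component 2 transcript, so they are kept apart and the identity of either is uncertain. C1qa, C1qb and C1qc were on chromosome 5, C1r and C1s on chromosome 4 and Cfb on chromosome 20, and RefSeq (GRCr8) places C1qc between C1qb and C1qa, C1r beside C1s, and a gene named C2 beside Cfb.

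**Figure D1:**
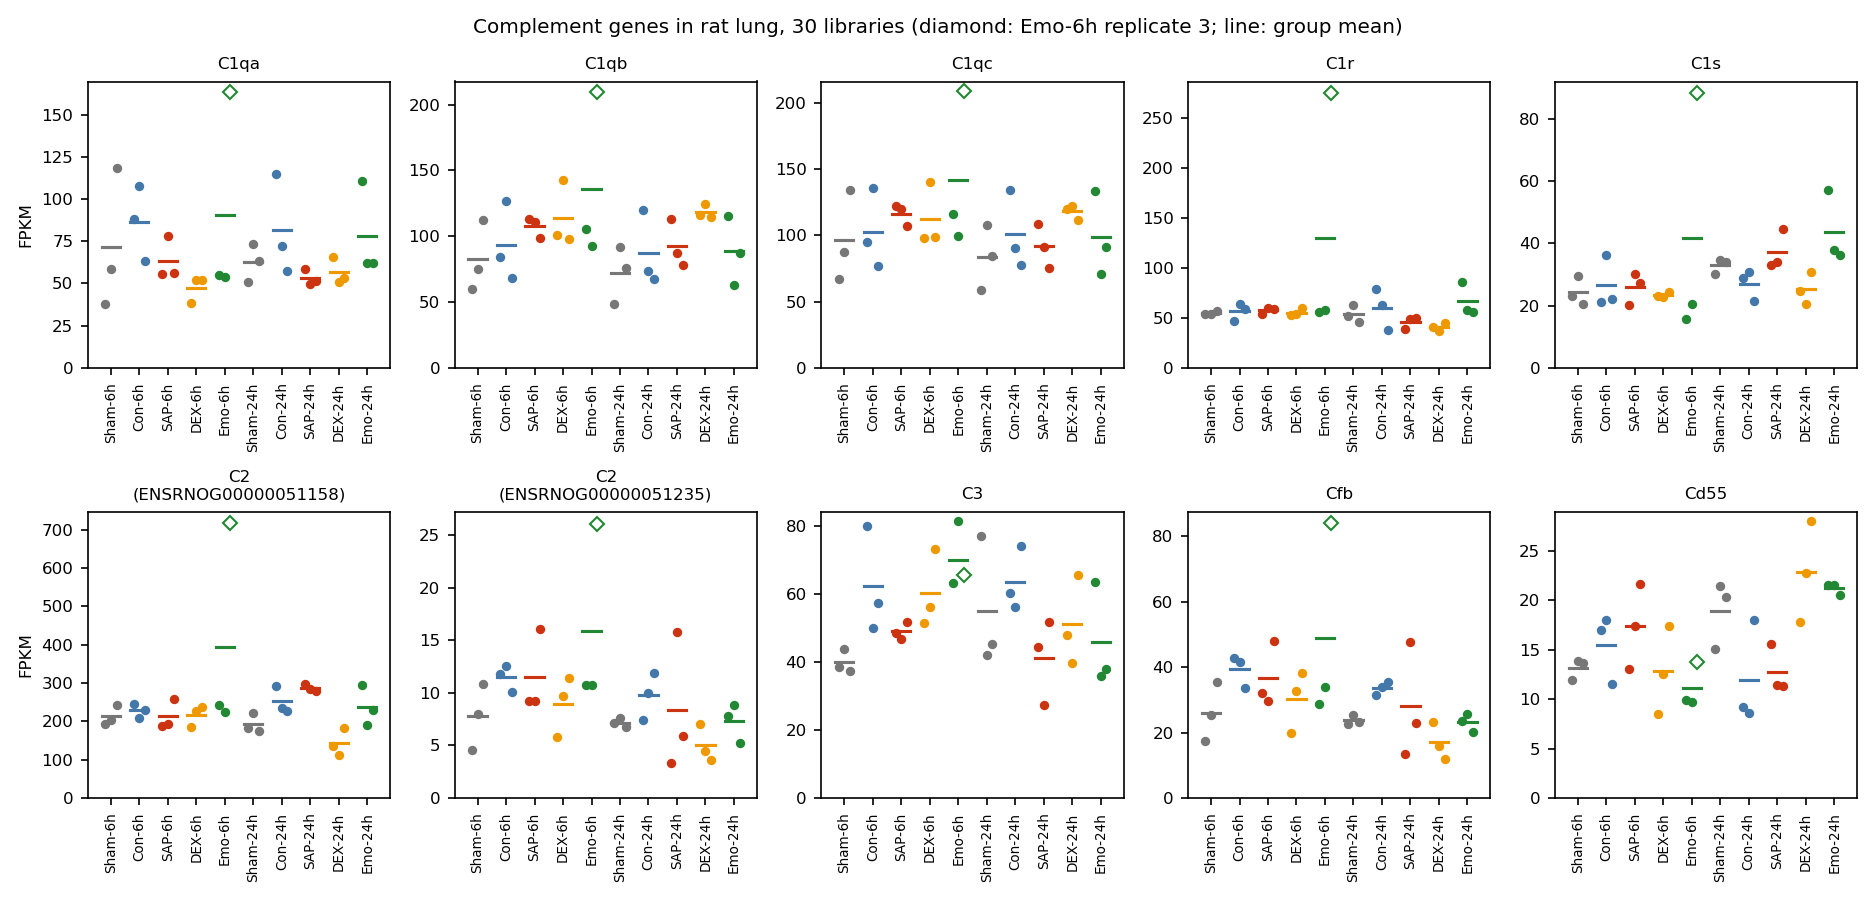
FPKM (y axis, from 0) of each complement gene in the 30 libraries, by group (x axis). Points are libraries, lines are means of 3, and the open diamond is replicate 3 of Emo-6h, which is the highest point in every panel but C3 and Cd55.

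Upstream sequences are shown for 4 of the genes, because C1qa and C1qb lie in 1 cluster yet had unlike group patterns, and because C1r and C3 had the highest ratio (5.07) and, Cd55 aside, the lowest (1.28) of replicate 3 of Emo-6h to the median of the other libraries. They are the 250 bases before the transcription start from RefSeq (GRCr8), written 5′ to 3′ on the strand of the gene. Promoters were found for 5 of the 9 symbols (C1qa, C1qb, C1r, C3 and Cd55). Capitals mark matches, on either strand, to a STAT site (GAS, TTCNNNGAA), an interferon-stimulated response element core (ISRE, GAAA and GAAA with 2 bases between), a C/EBP core (TTNCNNAA), a short NF-kB form (GGG and TTTCC with 2 bases between) or a glucocorticoid response element (GRE, AGNACA and TGTNCT with 3 bases between), and no matches overlapped each other. Of all 33469 windows of this length in the table, 7.67% held the GAS, 3.41% the ISRE core, 37.2% the C/EBP core, 1.30% the NF-kB form and 0.0359% the GRE.
C1qa, chr5:154419934-154420183, minus strand: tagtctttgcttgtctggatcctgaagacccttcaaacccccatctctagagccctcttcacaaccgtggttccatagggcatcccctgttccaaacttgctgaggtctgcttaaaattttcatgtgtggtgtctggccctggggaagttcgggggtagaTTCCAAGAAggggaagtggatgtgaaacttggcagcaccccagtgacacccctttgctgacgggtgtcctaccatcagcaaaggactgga
C1qb, chr5:154407828-154408077, minus strand: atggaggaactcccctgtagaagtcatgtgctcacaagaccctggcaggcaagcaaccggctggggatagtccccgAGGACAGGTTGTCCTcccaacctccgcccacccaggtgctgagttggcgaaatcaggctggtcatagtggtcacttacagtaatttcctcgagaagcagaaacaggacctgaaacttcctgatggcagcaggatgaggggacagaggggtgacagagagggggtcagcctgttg
C1r, chr4:159098763-159099012, plus strand: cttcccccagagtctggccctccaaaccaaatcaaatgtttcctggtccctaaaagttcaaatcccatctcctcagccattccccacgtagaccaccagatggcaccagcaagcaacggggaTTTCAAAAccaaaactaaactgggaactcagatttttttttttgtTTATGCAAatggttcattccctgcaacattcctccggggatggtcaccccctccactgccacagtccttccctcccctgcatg
C3, chr9:2201340-2201589, minus strand: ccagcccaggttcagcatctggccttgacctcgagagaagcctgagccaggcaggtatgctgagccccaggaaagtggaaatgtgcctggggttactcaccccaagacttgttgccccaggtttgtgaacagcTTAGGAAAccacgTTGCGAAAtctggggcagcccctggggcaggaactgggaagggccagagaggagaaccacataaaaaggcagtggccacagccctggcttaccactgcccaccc

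The C1qa window held a GAS match 90 bases before the start, and the C1qb window held a GRE match 174 bases before it. C1r and C3 each held 2 matches to the C/EBP core, at 128 and 83 bases in C1r and at 117 and 104 bases in C3. None of the 5 motifs was matched in the Cd55 window. These letters are a description of the windows and not binding sites.

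C1q, the recognition protein, is built from equal numbers of A, B and C chains encoded by C1qa, C1qb and C1qc. C1qb and C1qc kept nearly equal levels. Their FPKM ratio (C1qc over C1qb) stayed between 0.961 and 1.22 in all 30 libraries, and r of log2(FPKM + 1) was 0.973 over 30 libraries and 0.964 without replicate 3 of Emo-6h. The r of C1qa with C1qb was 0.504 over the same libraries and 0.330 without that library.

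The ratio of C1qa to C1qb was lower in most groups given taurocholate. It averaged 0.824 ± 0.217 (SD, n = 3) in Sham-6h, 0.941 ± 0.101 in Con-6h, 0.894 ± 0.136 in Sham-24h and 0.928 ± 0.0689 in Con-24h. In rats given taurocholate it averaged 0.589 ± 0.108 in SAP-6h, 0.579 ± 0.0685 in SAP-24h, 0.426 ± 0.0919 in DEX-6h, 0.479 ± 0.0812 in DEX-24h and 0.627 ± 0.136 in Emo-6h. Emo-24h was the exception, with 0.887 ± 0.155 and libraries from 0.709 to 0.992, close to the Sham and Con means. The highest ratio in SAP-24h was 0.652 and the lowest in Sham-24h was 0.799, so that these groups did not overlap. At 6 hours they did, with SAP-6h at up to 0.705 and Sham-6h from 0.632. Emo-6h overlapped Sham-6h through replicate 3 alone (0.780), since its other libraries were at 0.521 and 0.579. The share of uniquely mapped reads in the study's mapping summary moved with this ratio: it was higher in the Sham and Con libraries, lower in SAP, DEX and Emo-6h, and between them in Emo-24h. It therefore also differed in every comparison of SAP, DEX or Emo with Sham or Con below. Among rats given taurocholate, the share was higher in every Emo-24h library than in any Emo-6h, SAP-24h or DEX-24h library. In every DEX-24h library it was higher than in any SAP-24h or DEX-6h library. Its part in the ratio or in any of these comparisons was not tested. This ratio was noticed in the data and was given no test.

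**Figure D2:**
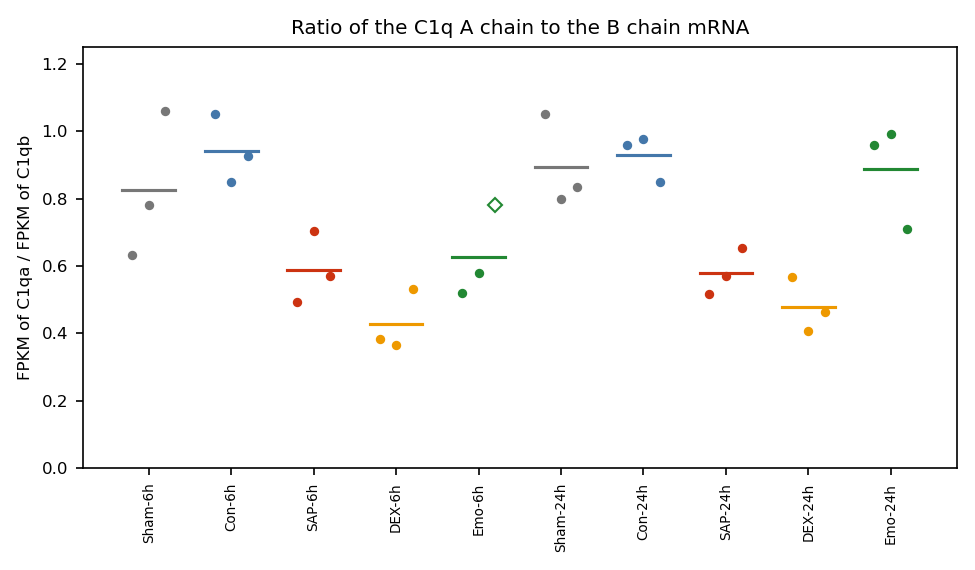
Ratio of C1qa FPKM to C1qb FPKM (y axis, from 0) by group (x axis). Points are libraries, lines are means of 3 and the open diamond is replicate 3 of Emo-6h. SAP, DEX and Emo-6h means lie between 0.426 and 0.627, and the Sham, Con and Emo-24h means between 0.824 and 0.941.

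Taken singly, none of the C1q chains passed the test in any comparison. C1qb was 0.75 higher on the log2 scale in DEX-24h than in Sham-24h (118 ± 5.44 and 72.2 ± 21.8 FPKM, adjusted p = 0.187). In Emo-6h, C1qa was 54.8, 53.6 and 163 FPKM and C1qb was 105, 92.6 and 210 FPKM, so the third library was far above the other 2 in both. The log2 difference between Emo-6h and DEX-6h was 0.93 for C1qa (adjusted p = 0.210) and 0.17 without that library. Between Emo-6h and Sham-6h it was 0.76 for C1qb (adjusted p = 0.163) and 0.30 without it.

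C1r and C1s are the 2 proteases of the C1 complex. C1r was even across most of the libraries, from 37.1 to 86.4 FPKM in 29 of them, with a mean of 54.9 ± 1.29 FPKM (SD, n = 3) in Sham-6h and 57.6 ± 3.09 in SAP-6h. In Emo-6h its values were 56.2, 58.3 and 275 FPKM. The first 2 lay within the range of SAP-6h, and the third was 5.07 times the median of the other 29 libraries. With all libraries, C1r was 1.29 higher on the log2 scale in Emo-6h than in Sham-6h (standard error 0.380, adjusted p = 0.0582), 1.24 higher than in DEX-6h (adjusted p = 0.0777) and 1.18 higher than in SAP-6h (adjusted p = 0.228). Without replicate 3 these differences were 0.098, 0.028 and -0.018.

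C1s followed the same library but differed at 24 hours. Its Emo-6h values were 15.8, 20.6 and 88.3 FPKM, that is, the lowest library of all 30 and the highest in 1 group. The log2 difference of Emo-6h was 0.84 from DEX-6h (adjusted p = 0.263) and 0.82 from Sham-6h (adjusted p = 0.205), and -0.38 from each without replicate 3. In Emo-24h it was 57.1, 37.9 and 36.2 FPKM, and the group mean of 43.7 ± 11.6 FPKM was the highest of the 10. The log2 difference of Emo-24h from Emo-6h was 0.012 with all libraries (adjusted p = 0.984) and 1.21 (standard error 0.228, adjusted p = 0.000881) without replicate 3 of Emo-6h. The r between C1r and C1s, 0.663 over 30 libraries, was 0.342 without it. A higher C1s at 24 hours was not particular to Emo rats. Sham libraries ran from 20.56 to 29.34 FPKM at 6 hours and 30.27 to 34.6 FPKM at 24 hours. SAP libraries ran from 20.27 to 30.25 and 33.0 to 44.6 FPKM. Neither change passed the test, and in Con and DEX rats the time points overlapped.

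C2 is the protease that pairs with C4 in the classical convertase. A row named C2, ENSRNOG00000051158, was the 1 row called between 2 treatments at the same time. Whether it holds the transcript of that protease is uncertain. For the row ENSRNOG00000051158, SAP-24h libraries were at 297, 285 and 280 FPKM and DEX-24h libraries at 135, 112 and 182 FPKM. All SAP-24h values were above all DEX-24h values, and the DEX-24h mean of 143 ± 35.8 FPKM was the lowest of the 10 groups. The log2 fold change was -1.10 (standard error 0.297, adjusted p = 0.0250), which made it the 1 of 10 rows called in DEX-24h vs SAP-24h (adjusted p under 0.05 and at least 2-fold), where 3.73% of the 15934 tested genes were called, and the 1 of 10 at an adjusted p alone, where 7.71% of genes passed. The call rested on 6 libraries: the adjusted p was 0.084 without replicate 1 and 0.111 without replicate 2 of DEX-24h, and 0.0739 without replicate 1 of SAP-24h, with log2 fold changes of -1.30 to -0.96 over the 6 fits.

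At 24 hours this C2 row was at 182, 221 and 175 FPKM in Sham-24h, below every SAP-24h library, but the log2 difference of 0.71 did not pass (adjusted p = 0.115). Emo-24h was at 294, 190 and 231 FPKM, between SAP-24h and DEX-24h and overlapping the range of both SAP-24h and Sham-24h. Its log2 difference from DEX-24h was 0.67 (adjusted p = 0.181). At 6 hours the means of Sham-6h, Con-6h, SAP-6h and DEX-6h lay between 213 and 229 FPKM. Emo-6h was at 244, 224 and 716 FPKM, and its log2 difference from Sham-6h was 0.94 with all libraries (adjusted p = 0.0698) and 0.18 without replicate 3. Whether the DEX effect differed between 24 and 6 hours was tested by an interaction, which was -1.12 on the log2 scale (adjusted p = 0.230), and that of emodin was -1.32 (adjusted p = 0.0667), or -0.58 without replicate 3 of Emo-6h (adjusted p = 0.218).

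Cfb encodes factor B of the alternative pathway. It ran from 12.0 to 48.0 FPKM in 29 libraries and reached 84.0 FPKM in replicate 3 of Emo-6h. The second C2 row, ENSRNOG00000051235, followed it closely, with r of 0.978 over 30 libraries and 0.970 without that library. Both were lowest on average in DEX-24h, with 17.1 ± 5.77 FPKM (SD, n = 3) for Cfb and 5.03 ± 1.77 FPKM for the C2 row, but neither passed the test against SAP-24h. Values in SAP-24h were widely spread, at 13.5 to 47.8 FPKM for Cfb.
Both rows moved with the macrophage list. Over 30 libraries, r of log2(FPKM + 1) with the summed list was 0.826 for Cfb and 0.814 for the C2 row, and 0.805 and 0.788 without replicate 3 of Emo-6h. For C1qa, r with the same list was 0.509 (0.409 without the library), for C1qb 0.157 (-0.026) and for C1r 0.414 (0.236). With the interferon response list, C1r had r of 0.733 (0.542 without the library) and Cfb 0.172 (-0.193). With the fibroblast list, C1r had r of 0.466 and, without the library, 0.595, which was above its r with the interferon list. These libraries share their groups and the lists were not tested as causes.

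**Figure D3:**
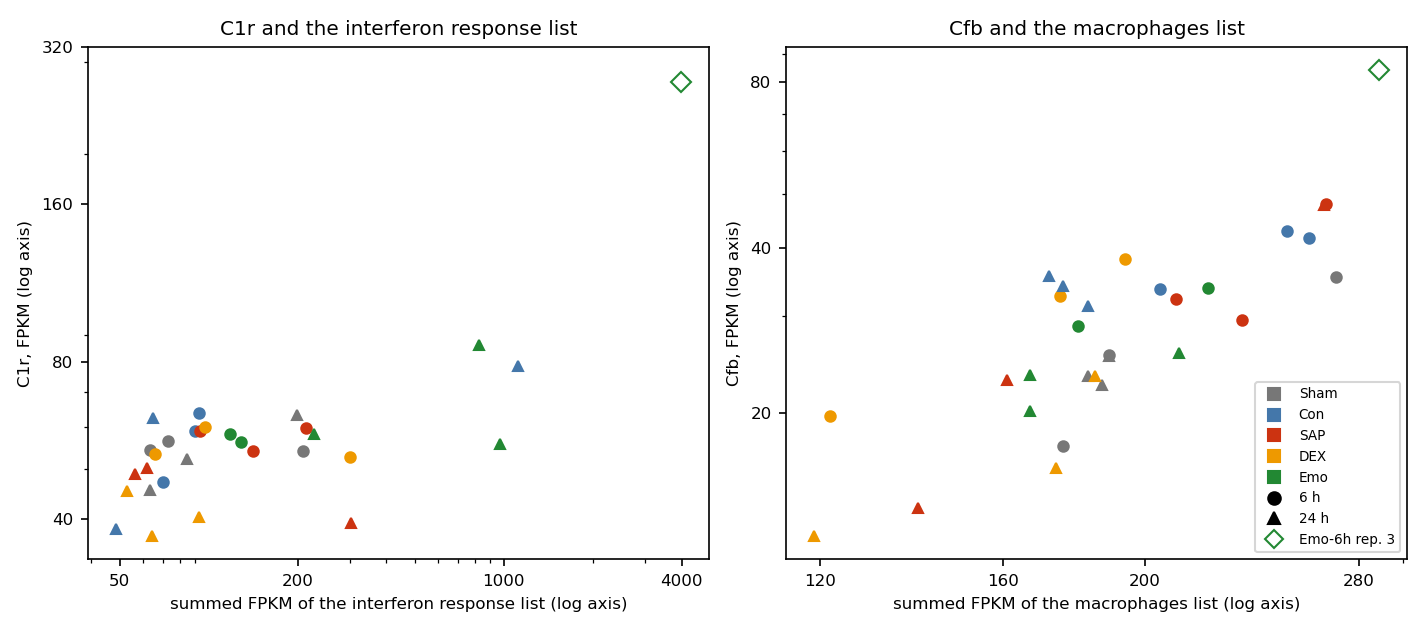
Left, C1r FPKM against the summed FPKM of the 7 interferon response genes; right, Cfb FPKM against the summed FPKM of the 9 macrophage genes. All axes are logarithmic, each point is a library, colours are treatments, circles are 6 hours, triangles 24 hours and the open diamond is replicate 3 of Emo-6h, at 3970 and 289 FPKM on the x axes. After that library, C1r is highest in replicate 1 of Emo-24h (86.4 FPKM, interferon sum 825 FPKM) and replicate 1 of Con-24h (78.7 FPKM, interferon sum 1120 FPKM).

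C3 is the component on which all pathways converge. It did not follow the other genes into replicate 3 of Emo-6h, where it was 65.7 FPKM and 5 libraries were higher. Sham-6h was the lowest group, at 38.7, 43.9 and 37.5 FPKM, and Emo-6h the highest, at 63.1, 81.5 and 65.7 FPKM, with no overlap between them. The log2 difference of 0.84 (standard error 0.250) fell short of the threshold (adjusted p = 0.0586) and was 0.89 without replicate 3 of Emo-6h (adjusted p = 0.0975). It passed with DESeq2 (0.85, adjusted p = 0.0171) and with a replicate block (0.85, adjusted p = 0.0465), below 2-fold in both. Con-6h and DEX-6h also differed from Sham-6h by 0.63 each, with adjusted p-values of 0.469 and 0.112. SAP-6h, at 46.7 to 51.9 FPKM, lay above Sham-6h without overlap and did not pass the test. The r of C3 with C1r, C1s, both C2 rows and Cfb lay between -0.0859 and 0.215 over 30 libraries, and between -0.240 and 0.150 without replicate 3 of Emo-6h.

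Cd55, or decay-accelerating factor, protects cells by breaking up the convertases. Its values were higher at 24 than at 6 hours after both drugs and, without passing the test, in Sham. In DEX-6h it was 8.55, 12.6 and 17.5 FPKM and in DEX-24h 17.8, 22.8 and 28.0 FPKM, a log2 difference of 0.85 with a standard error of 0.268 (adjusted p = 0.0220). In Emo-6h it was 9.96, 9.77 and 13.8 FPKM and in Emo-24h 21.6, 21.5 and 20.5 FPKM, a log2 difference of 0.88 with a standard error of 0.268 (adjusted p = 0.0145). All 24-hour libraries were above all 6-hour libraries in both drug groups. Neither change reached 2-fold. In SAP rats the values were 13.1, 17.5 and 21.6 FPKM at 6 hours and 15.6, 11.45 and 11.36 FPKM at 24 hours, which overlapped. In Sham rats they were 12.0 to 13.8 and 15.1 to 21.5 FPKM, which did not overlap. The log2 difference of 0.55 in Sham did not pass (adjusted p = 0.244). Con rats, at 11.56 to 18.0 and 8.65 to 18.06 FPKM, overlapped.

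The difference between DEX-24h and SAP-24h was 0.73 for Cd55 (adjusted p = 0.0936), and that between Emo-24h and SAP-24h was 0.56 (adjusted p = 0.182). At 6 hours Emo-6h was lower than SAP-6h by 0.64 (adjusted p = 0.314). The interaction with time was 1.18 for DEX (adjusted p = 0.172) and 1.20 for emodin (adjusted p = 0.0658), and neither passed. The change in DEX rats held an adjusted p under 0.05 in 2 of 6 fits that left out 1 library (0.0516 and 0.0964 without replicates 2 and 3 of DEX-24h, 0.124 and 0.0619 without replicates 1 and 2 of DEX-6h). The change in Emo rats held in 4 of 6 (0.0616 and 0.0638 without replicates 1 and 2 of Emo-6h).

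Across the genes, Emo-24h vs Emo-6h had the most called rows. C1r (log2 fold change -1.02, adjusted p = 0.0399), Cfb (-1.13, adjusted p = 0.0252) and the C2 row ENSRNOG00000051235 (-1.18, adjusted p = 0.0384) were lower at 24 hours by at least 2-fold. That is 3 of 10 rows, where 9.41% of genes were called in either direction and 3.08% lower. At an adjusted p alone, C3 (-0.66, adjusted p = 0.0426) and the C2 row ENSRNOG00000051158 (-0.78, adjusted p = 0.0429) were also lower, which makes 5 rows against 16.8% of genes, and Cd55 was the 1 row higher against 17.3% of genes. In the same comparison 3 of 6 fibroblast genes (Col1a1, Col1a2 and Col3a1) were called lower and 1 (Dcn) higher, with a median log2 fold change of -1.24 and sums of 697 to 841 FPKM in Emo-6h against 216 to 429 FPKM in Emo-24h. Over 30 libraries r with the summed fibroblast list was 0.466 for C1r, 0.527 for Cfb and 0.544 for the C2 row ENSRNOG00000051235, and the part of fibroblasts was not tested. The median over the 10 rows was -0.67, and over all genes 0.035.
Most of this rested on replicate 3 of Emo-6h. Without it the log2 fold changes were 0.16 for C1r (adjusted p = 0.587), -0.49 for Cfb (0.319), -0.62 for ENSRNOG00000051235 (0.302) and -0.031 for ENSRNOG00000051158 (0.927), whereas C3 was -0.72 (0.0552) and Cd55 1.05 (0.0135). The rows called without it were 2 others, C1s and Cd55, both higher at 24 hours. That fit called 1338 genes in all, in either direction, against 1500 of 15934 (9.41%) with all libraries. Fits without another Emo library called 1122 to 1738 genes. The 2 rows are given for their values only. C1r also lost its call without replicates 2 (adjusted p = 0.117) and 3 (0.111) of Emo-24h, Cfb without replicates 1 (0.0633) and 3 (0.0731), and ENSRNOG00000051235 without replicates 1 (0.0771), 2 (0.0544) and 3 (0.128). With the compared groups alone, the adjusted p was 0.242 for C1r, 0.0654 for Cfb and 0.0533 for ENSRNOG00000051235. The adjusted p of C3 was above 0.05 in 5 of 6 such fits, up to 0.164.

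**Figure D4:**
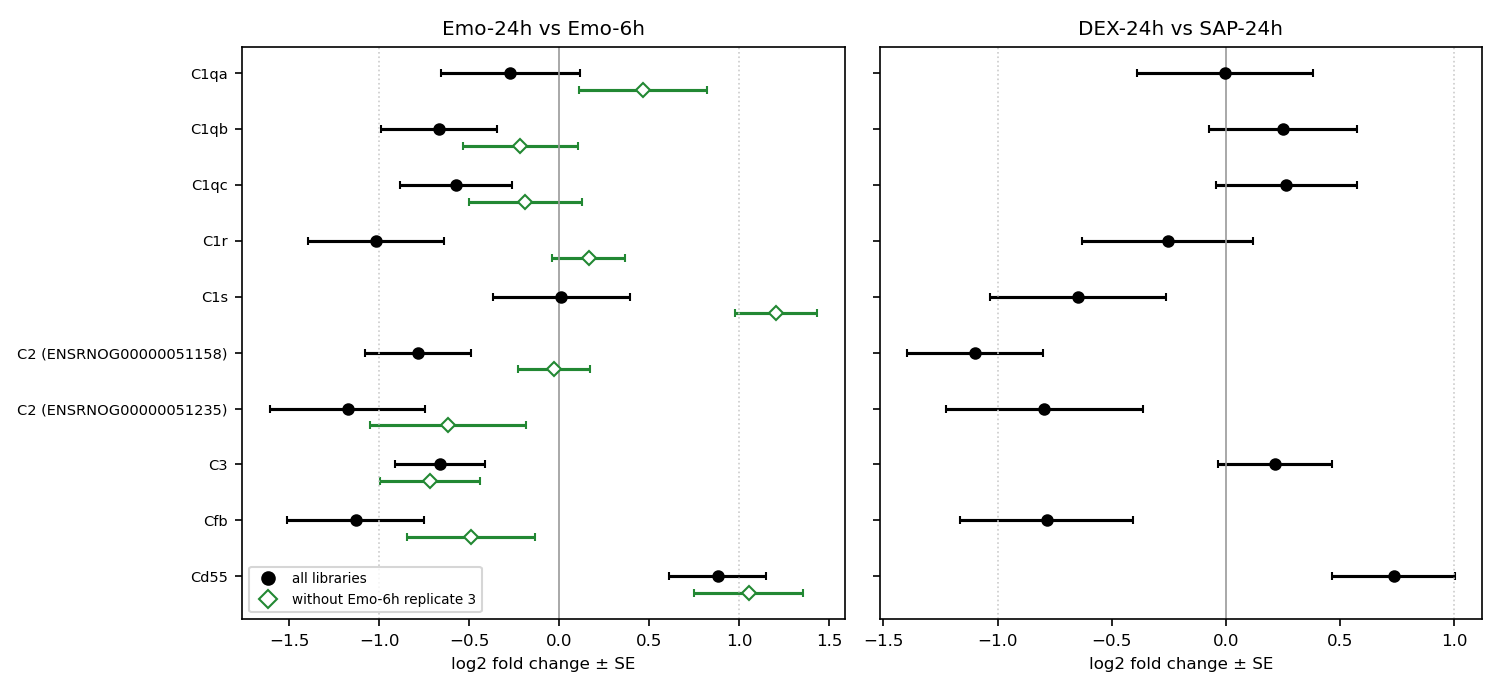
Log2 fold change ± standard error (x axis) of the 10 rows in Emo-24h vs Emo-6h (left) and DEX-24h vs SAP-24h (right). Filled points use all libraries and open diamonds leave out replicate 3 of Emo-6h, and dotted lines mark a 2-fold change. On the left, C1r moves from -1.02 to 0.16 and C1s from 0.012 to 1.21, while Cd55 and C3 stay on the same side.

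In the other comparisons, 0 of 10 rows were called by edgeR's quasi-likelihood test. The share of all genes called there was 0.220% in SAP-6h vs Sham-6h, 0.515% in DEX-6h vs SAP-6h, 0.0251% in Emo-6h vs SAP-6h, 1.41% in Emo-6h vs DEX-6h, 3.97% in DEX-6h vs Sham-6h, 0.477% in Emo-6h vs Sham-6h, 0.163% in SAP-6h vs Con-6h and 0% in Con-6h vs Sham-6h. At 24 hours it was 5.00% in SAP-24h vs Sham-24h, 3.19% in Emo-24h vs SAP-24h, 5.06% in Emo-24h vs DEX-24h, 4.15% in DEX-24h vs Sham-24h, 0% in Emo-24h vs Sham-24h, 6.91% in SAP-24h vs Con-24h and 1.00% in Con-24h vs Sham-24h. Between the time points it was 0.257% in Sham, 0.00628% in Con, 2.42% in SAP and 7.14% in DEX rats (25.9% at an adjusted p alone, which Cd55 passed). For the interactions with time it was 0.0314% for SAP vs Sham, 0.138% for DEX vs SAP and 1.68% for Emo vs SAP. Each of these shares at 2-fold corresponds to fewer than 1 row in 10.
At an unadjusted p under 0.05, 7 rows were higher in Emo-6h than in Sham-6h (C1r, both C2 rows, C3, Cfb, C1qb and C1s), 4 than in DEX-6h and 2 than in SAP-6h, with Cd55 lower than in SAP-6h. At that level 22.6%, 17.3% and 13.5% of all genes passed in these comparisons, in either direction. Without replicate 3 of Emo-6h the difference from Sham-6h was 0.098 for C1r, 0.18 for ENSRNOG00000051158, 0.30 for Cfb and -0.38 for C1s. In each of the remaining comparisons without a call, no more than 2 rows passed that level, and no row did in SAP-6h vs Sham-6h, DEX-6h vs SAP-6h, SAP-6h vs Con-6h, Emo-24h vs Sham-24h, SAP-24h vs Con-24h, Con-24h vs Con-6h or SAP-24h vs SAP-6h. Over these comparisons, 3.00% (Emo-24h vs Sham-24h) to 37.8% (DEX-24h vs DEX-6h, with 2 rows) of all genes passed it, among them 13.1% in SAP-6h vs Sham-6h, 24.8% in SAP-24h vs SAP-6h and 35.1% in SAP-24h vs Con-24h. DESeq2 called C1r in Emo-6h vs DEX-6h (1.23, adjusted p = 0.0256) and in Emo-6h vs Sham-6h (1.30, adjusted p = 0.0132), and Cd55 and ENSRNOG00000051158 in the interaction of emodin with time (1.17 and -1.36, adjusted p = 0.0353 and 0.0227). It called 389, 176 and 598 genes in all in these 3. The edgeR values of the interaction without replicate 3 of Emo-6h were 1.36 for Cd55 (adjusted p = 0.0795) and -0.58 for ENSRNOG00000051158.
In the pancreatitis model without drug, none of these genes passed the test against Sham. In SAP-6h vs Sham-6h the median log2 difference of the 10 rows was 0.33 (all genes, -0.018), and in SAP-24h vs Sham-24h it was 0.28 (all genes, -0.032). The 95% confidence intervals were wide, for C1s -0.66 to 0.94 at 6 hours and -0.50 to 1.10 at 24 hours on the log2 scale. Groups held 3 samples, and the spread came from the model of all 10 groups, replicate 3 of Emo-6h included. The standard error of C1r in Emo-6h vs Sham-6h, given above with all libraries, was 0.203 without that library. SAP vs Sham was fitted without it only with the compared groups alone.

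The order of the 10 groups by mean level differed between the genes. With all libraries, Emo-6h was highest for every row except C1s (Emo-24h highest) and Cd55 (DEX-24h highest). Without its replicate 3, Emo-6h (mean of 2 libraries) stayed highest for C3 only, was 3 or 4 in the order of 10 groups for C1qb, C1qc, C1r, Cfb and both C2 rows, 8 for C1qa (54.2 FPKM, with Con-6h highest at 86.4 FPKM) and lowest for C1s (18.2 FPKM) and Cd55 (9.87 FPKM). The highest group was then Emo-24h for C1r (66.8 FPKM, Emo-6h 57.3 FPKM) and SAP-24h for the C2 row ENSRNOG00000051158 (287 FPKM, Emo-6h 234 FPKM). With all libraries, DEX-24h was lowest for C1r, both C2 rows and Cfb, Sham-24h for C1qb and C1qc, DEX-6h for C1qa and C1s, Sham-6h for C3 and Emo-6h for Cd55. Groups next to each other in these orders mostly did not differ beyond their spread. Of the 9 neighbouring pairs, the means differed by more than the larger SD in 0 pairs for C1qa, C1qb, C1qc, C1r, C3 and Cd55 and in 1 pair each for C1s, Cfb and both C2 rows. For the C2 row ENSRNOG00000051158 that pair was Sham-24h (193 ± 24.5 FPKM) and DEX-24h (143 ± 35.8 FPKM).

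The wider complement list, written from the pathway, had 38 rows, of which 35 were tested. Its largest count of called rows was in DEX-24h vs SAP-24h, with 0 rows higher and 9 lower of 35, where 3.73% of all genes were called. Cfp, properdin, the stabilizer of the alternative convertase, was at 47.4, 55.4 and 49.1 FPKM in SAP-24h and 12.96, 13.33 and 10.13 FPKM in DEX-24h, and its log2 fold change was -2.15 (standard error 0.247, adjusted p = 3.82e-05). DEX-24h was also below every library of Sham-24h and Emo-24h. Fcnb, a ficolin that starts the lectin pathway, fell by 2.86 on the log2 scale (adjusted p = 0.0180), and C1rl, a C1r-like protease, fell by 1.10 (adjusted p = 0.0123).
Among receptors, the integrin chains of complement receptors 3 and 4 fell together in DEX-24h vs SAP-24h: Itgax by 2.91, the shared beta chain Itgb2 by 1.73 and Itgam by 1.53 on the log2 scale (adjusted p = 0.000664, 6.23e-05 and 0.0150). C5ar1, the receptor for the C5a fragment, fell by 1.35 (adjusted p = 0.00252). Vtn, vitronectin, which blocks the membrane attack complex, was at 22.4, 22.7 and 25.5 FPKM in SAP-24h and 6.43, 8.45 and 9.32 FPKM in DEX-24h and fell by 1.63 (adjusted p = 0.000589). Of these 8 genes, Fcnb, C1rl and Itgam lost an adjusted p under 0.05 when a single library was left out (highest 0.0830, 0.0683 and 0.0827). The neutrophil list, whose cells carry Itgam, Itgb2, Cfp and C5ar1, summed to 4660 to 17800 FPKM in SAP-24h and 1620 to 4830 FPKM in DEX-24h, with a median log2 fold change of -2.26 over its 8 genes (all genes, 0.0022), and 1 of the 8, Ncf1, was called lower. The macrophage list summed to 140 to 265 and 119 to 185 FPKM, with 0 of 9 genes called. The part of either cell type was not tested.

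**Figure D5:**
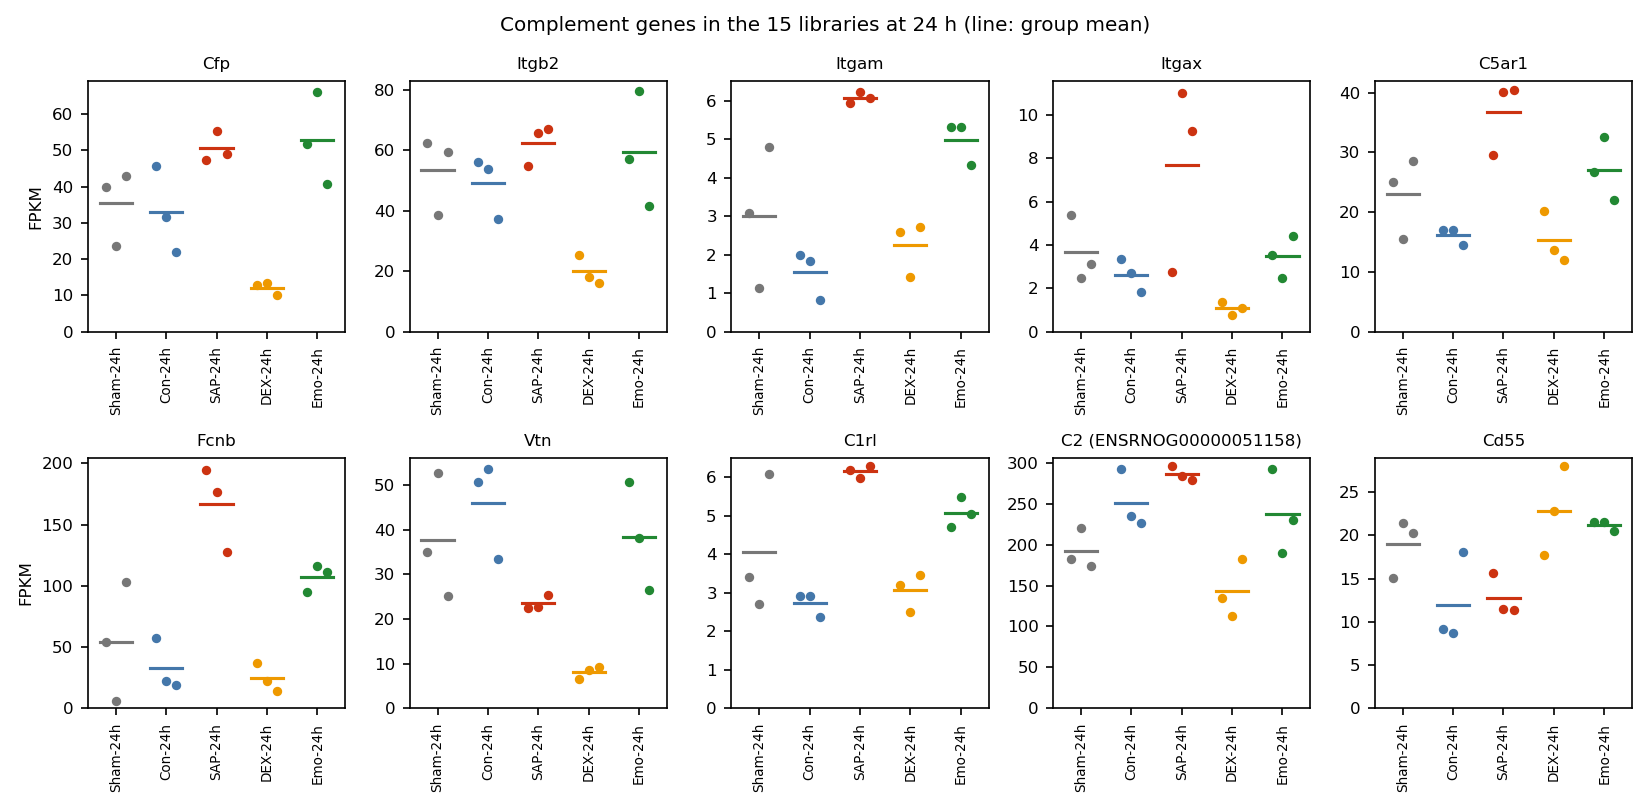
FPKM (y axis, from 0) in the 15 libraries at 24 hours of 8 genes of the wider complement list called lower in DEX-24h than in SAP-24h, and of the C2 row ENSRNOG00000051158 and Cd55. Points are libraries and lines are means of 3. In Cfp, DEX-24h lies between 10.1 and 13.3 FPKM, and in Cd55 it has the highest mean.

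In Emo-24h vs DEX-24h (5.06% of all genes called), 4 rows of the wider list were higher and none lower: Vtn (2.18, adjusted p = 3.87e-05), Cfp (2.05, adjusted p = 3.87e-05), Itgax (1.64, adjusted p = 0.0247) and Itgb2 (1.50, adjusted p = 0.000189). The same 4 genes were lower in DEX-24h than in Sham-24h (4.15% of all genes called), by 2.19, 1.50, 1.72 and 1.37 (adjusted p = 7.11e-05, 0.000695, 0.0215 and 0.000506), and these comparisons share the DEX-24h libraries. Of the 8 neutrophil genes, Ncf1 was called in both, higher in Emo-24h than in DEX-24h (1.55, adjusted p = 0.00115) and lower in DEX-24h than in Sham-24h (-1.25, adjusted p = 0.00573), with list medians of 0.93 and -0.37. In Emo-24h vs DEX-24h, 2 of 7 interferon response genes (Mx1 and Gbp2) were also called higher, with a list median of 3.43. The fibroblast gene Lum was called higher and the type 2 cell gene Sftpb lower there. In DEX-24h vs Sham-24h the interferon list had 0 genes called and a median of -1.16. The part of neutrophils or of these other lists was not tested. Itgax did not keep an adjusted p under 0.05 in 4 of 6 and 3 of 6 fits with 1 library left out. In SAP-24h vs Sham-24h 1 of 35 rows, Itgam, was called (1.15, adjusted p = 0.0450), where 5.00% of all genes were, and it was lost in 5 of 6 such fits. The neutrophil list had a median of 1.71 there, with 0 of 8 genes called and sums of 4660 to 17800 FPKM in SAP-24h against 423 to 9530 FPKM in Sham-24h, and its part in the Itgam call was not tested. Against Con-24h (6.91% of all genes called), 5 rows were higher in SAP-24h: Fcnb (2.48), Itgam (2.09), Itgax (1.65), C1rl (1.30) and C5ar1 (1.30), with adjusted p-values of 0.00108 to 0.0160 and Fcnb lost in 3 of 6 fits. Itgax did not pass with the compared groups alone (adjusted p = 0.0963). In this comparison 7 of 8 neutrophil genes were called higher, with a median log2 fold change of 4.48 and sums of 4660 to 17800 FPKM in SAP-24h against 236 to 1260 FPKM in Con-24h, and the part of neutrophils in it was not tested.
Between 24 and 6 hours, Vtn (-2.39), Clu (-1.10), Itgb2 (-1.05) and Cfp (-1.01) were lower in DEX rats (adjusted p = 1.01e-05 to 0.00747), 4 of 35 rows where 7.14% of all genes were called. In this comparison 4 of 6 fibroblast genes were called lower (median -1.83), 3 of 9 macrophage genes (Cd163, Marco and Msr1) higher and 0 of 8 neutrophil genes either way (median -0.22), and the part of these cells was not tested. Clu is clusterin, another inhibitor of the terminal complex. In Emo rats 3 of 35 rows were called, where 9.41% of all genes were, so that the share was near the background. Colec12, a collectin, was higher (1.09, adjusted p = 0.00163), and Masp1, a lectin pathway protease, and the C4a row ENSRNOG00000000443 were lower (-1.30 each, adjusted p = 0.0394 and 0.0142). Without replicate 3 of Emo-6h, Masp1 was at -1.01 (adjusted p = 0.150) and C4a at -0.62 (adjusted p = 0.213). In Emo-6h, Cfp (1.17, adjusted p = 0.0109) and Fcnb (2.58, adjusted p = 0.0499) were higher than in DEX-6h, 2 of 35 rows where 1.41% of all genes were called. The adjusted p of Cfp was 0.0853 and 0.0547 without replicates 1 and 3 of DEX-6h, and 0.0706 with the compared groups alone. Fcnb passed in none of the 6 fits with 1 library left out. In this comparison 1 of 8 neutrophil genes, Ncf1, was called higher (1.07, adjusted p = 0.0304, list median 0.32). So was 1 of 7 interferon response genes, Gbp2 (3.07, adjusted p = 0.0359, list median 3.07). The part of either list was not tested. In Emo-6h, C4b was the 1 of 35 rows higher than in Sham-6h (1.87, adjusted p = 0.0443, where 0.477% of all genes were called) at 19.8, 20.1 and 148 FPKM, and was at 0.21 without replicate 3 (adjusted p = 0.742). C4a and C4b are near-identical copies, and reads that map to both were discarded by the authors.

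The genes whose pattern was most like each member were ranked by Pearson r of log2(FPKM + 1) over the 30 libraries, which share their groups and the library that stood apart. For C1r these were Tapbp (0.907), C4b (0.903) and Fbxw17 (0.896), with r of 0.804, 0.683 and 0.758 without replicate 3 of Emo-6h. For the C2 row ENSRNOG00000051158 they were Serping1 (0.828), Rnf19b (0.820) and Trim26 (0.797), with 0.651, 0.605 and 0.587 without it. Serping1 encodes the C1 inhibitor and was at 561 FPKM in that library and 165 and 208 FPKM in the other Emo-6h libraries. For C1qa they were Ms4a7 (0.858), Slamf9 (0.784) and Tcirg1 (0.766). C1qb shared Rbks with C1qc (0.720 and 0.750), followed by Socs1 (0.708) and Slc7a5 (0.705) for C1qb and by the macrophage gene Siglec1 (0.716) and AABR07005506.1 (0.714) for C1qc. C1s was most like AABR07068214.1 (0.781), Trim21 (0.780) and Ms4a6a (0.771). Without replicate 3 of Emo-6h, r was 0.801 for C1qa with Ms4a7 and 0.596 for C1qb with Rbks. It was 0.591 for C1qc with Siglec1 and 0.644 for C1s with AABR07068214.1.
Cfb and the C2 row ENSRNOG00000051235 both had Axl, a receptor tyrosine kinase, among their 3 (0.810 and 0.815, and 0.846 and 0.844 without the library). The others were Arrb2 (0.810) and Pitpnm1 (0.809) for Cfb and, for the C2 row, Kcnab2 (0.809). C3 had no close match, with Pgap3 (0.646), Wiz (0.610) and Tubb4b (0.608). Cd55 was most like Pih1d3 (0.821), a gene of motile cilia assembly, Fgfr1op (0.773) and Sp3 (0.768), with r of 0.846, 0.772 and 0.771 without the library. When the ranking was repeated without replicate 3 of Emo-6h, chosen after seeing the data, 7 of the 30 gene names were the same.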

How the data were processed

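The authors sequenced poly(A) RNA of 30 lung samples as directional libraries, mapped reads with TopHat2 to the rat genome (rat_ensembl_v6, 2 mismatches allowed), discarded reads with several positions and deposited a count table and an FPKM table (fragments scaled to gene length and library size). Deposited counts (22914 genes, 16813949 to 34692306 reads per library) were tested with edgeR 4.0.16 (R 4.3.3, limma 3.58.1) after a low-count filter (filterByExpr, at least 10 reads and a total of 15) and TMM scaling, with quasi-likelihood tests on 1 model of 10 groups (20 residual degrees of freedom), and Benjamini-Hochberg adjustment over 15934 genes in each of 21 comparisons and 3 interactions. Genes with an adjusted p under 0.05 and a change of at least 2-fold were called. Deposited FPKM gave levels, ratios and correlations of log2(FPKM + 1). Tables and figures were made with Python 3.11.15, numpy 2.4.6, pandas 2.3.3 and matplotlib 3.10.9.

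All members are described. Of the wider list, called genes are named, up to 8 per comparison by size, and likeness names the 3 symbols of highest r with a mean of at least 1 FPKM, of which 1 is not reported here. Members and lists were chosen with earlier results of these data known. Mbl2, C4, C5, Cd59b, Crry and Cd93 matched no row. Steps were tested on simulated data. Alternatives were RLE scaling, DESeq2 1.42.0, no filter, the compared groups alone, no fold minimum, a replicate block, leaving out each library, a pseudocount of 0.1 and no FPKM minimum.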

Additional observations from a re-analysis of the deposited data

How the results depend on the processing

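Counts of called complement rows changed in few comparisons. With DESeq2 they were 1 in Emo-6h vs DEX-6h, 1 in Emo-6h vs Sham-6h and 2 in the interaction of Emo vs SAP with time, against 0 each. With no fold minimum they were 1 in DEX-24h vs DEX-6h and 6 in Emo-24h vs Emo-6h, and with the compared groups alone 0 in Emo-24h vs Emo-6h, against 0, 3 and 3. Over all genes these 3 fits called 4128, 5428 and 1313. Leaving out 1 library gave 0 to 2 in Emo-6h vs DEX-6h, 0 to 2 in Emo-6h vs Sham-6h, 0 to 1 in DEX-24h vs SAP-24h, 0 to 1 in Con-24h vs Sham-24h (Cd55, -1.08, without replicate 3 of Con-24h), 0 to 1 in DEX-24h vs DEX-6h, 0 to 4 in Emo-24h vs Emo-6h and 0 to 1 in the interaction of Emo vs SAP with time. Counts over all genes moved in such fits too. In Emo-6h vs DEX-6h they ran from 45 to 277, against 225 with all libraries. They ran from 337 to 634 in DEX-24h vs SAP-24h (594 with all libraries) and from 823 to 1028 in DEX-24h vs DEX-6h (1137). In Emo-24h vs Emo-6h they ran from 1122 to 1738 (1500), with 1738 in the fit with 4 rows. The fits with called rows called 206 genes in Emo-6h vs Sham-6h, 366 in Con-24h vs Sham-24h, and 605 and 467 in the interaction. Without replicate 3 of Emo-6h the direction turned for 7 of 10 rows in Emo-6h vs SAP-6h, 3 in Emo-6h vs DEX-6h, 2 in Emo-6h vs Sham-6h, 2 in Emo-24h vs Emo-6h and 4 in the interaction of Emo vs SAP with time. Among the differences printed above, these were C1r in Emo-6h vs SAP-6h (-0.018, highest 1.54 with another library left out) and Emo-24h vs Emo-6h (0.16, lowest -1.40) and C1s in Emo-6h vs DEX-6h (-0.38, highest 1.22) and vs Sham-6h (-0.38, highest 1.21). C1s in Emo-24h vs Emo-6h, near 0, was -0.020 with RLE scaling, -0.011 without the filter and -0.020 with DESeq2, and -0.38 to 1.21 with 1 library left out (-0.20 without replicate 1 of Emo-24h, -0.38 and -0.35 without replicates 1 and 2 of Emo-6h). Other causes were not tested. The names of the genes most like each member were kept for 27 of 30 with a pseudocount of 0.1, 25 with no FPKM minimum and 7 without replicate 3 of Emo-6h, the last chosen after seeing the data.

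Replicate numbers were taken only to name samples: correlations of same-numbered deviations ran from -0.363 to 0.359 and all 3 exceeded 0.1 in 1 of 21 comparisons. That comparison was DEX-24h vs DEX-6h (0.212, 0.221 and 0.23). A replicate block left every count of called rows among the 9 genes within 1.5 times. Under it C1r (-0.94, adjusted p = 0.0683) and ENSRNOG00000051158 (-0.72, adjusted p = 0.0523) no longer passed in Emo-24h vs Emo-6h, Fcnb (2.64, 0.0630), C4b (1.75, 0.0657) and Itgam (1.13, 0.0623) no longer passed in Emo-6h vs DEX-6h, Emo-6h vs Sham-6h and SAP-24h vs Sham-24h, and C3 passed in Emo-6h vs Sham-6h (0.85, adjusted p = 0.0465).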
